A study of Mus musculus with 6 samples.

Results

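The elastic fibre and microfibril genes examined here are elastin (Eln), the fibrillins Fbn1 and Fbn2, the fibulins Fbln1, Fbln2, Fbln5, Efemp1 (fibulin-3) and Efemp2 (fibulin-4), and the lysyl oxidases Lox and Loxl1. They were taken by gene symbol, and all 10 were present among the 20173 genes of the count table. RNA was sequenced from cultures labelled as neurons of the sympathetic ganglion, with 3 libraries from Slit2fl/fl mice, which carry loxP-flanked Slit2 with no Cre named, and 3 from Slit2th mice, in which the same alleles are deleted by Cre under the promoter of Th (tyrosine hydroxylase). By the study's methods, sympathetic chains of male C57BL/6J mice aged 3 weeks were dissociated with enzymes, and the cells were cultured for 4 to 5 days in neural medium with B27. The same methods also call the dissected cells dorsal root neurons, so the kind of ganglion is not settled by the sources used here. Slit2 is thus removed only in cells that have expressed the Cre, while every cell type that survives in the dish contributes RNA. Whether a library stands for 1 mouse or a pool is not stated, so the p-values below measure the spread between these libraries, which may in part be technical.

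Elastic fibres are built on a scaffold of fibrillin microfibrils, onto which tropoelastin is deposited and then cross-linked by copper-dependent lysyl oxidases. Fibulins bridge the partners: fibulin-5 binds elastin and Loxl1, and fibulin-4 brings Lox to tropoelastin. Microfibrils also exist without elastin, and the fibrillins store latent TGF-beta and BMPs in the matrix. Lox cross-links collagen as well as elastin. In peripheral nerve and ganglia these proteins are mostly matrix of the fibroblast-rich sheaths.

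The deposited values are reads per gene, and total counts ran from 1255939 to 3155406 per library. Levels are given as CPM (TMM-normalized read counts scaled to a common library size), and 3 counts, taken as the floor of detection, correspond to 0.959 to 2.64 CPM. These floors cover counting error only. Replicate 1 of each group stood apart, with a correlation of log2 CPM of 0.842 to 0.869 to the other libraries of its group, against 0.938 and 0.965 between replicates 2 and 3. Slit2, the deleted gene, had 139, 85 and 77 counts in Slit2fl/fl and 17, 24 and 27 in Slit2th, so every library matched its label. Of the sympathetic neuron markers, Th and Rbfox3 had 0 counts in all 6 libraries, against the label. The 23 in the table summed to 210.9 to 600.2 CPM (Slit2fl/fl) and 205 to 224 CPM (Slit2th). Of these 23, 17 had too few counts to be tested. Tubb3, the highest of them in mean CPM, held 290 of the 600.2 CPM in Slit2fl/fl replicate 1. The sum of 18 glia markers lay at 6802 to 13187 CPM (Slit2fl/fl) and 15290 to 21967 CPM (Slit2th). Among the 12152 genes tested with edgeR's quasi-likelihood test, 0 (0%) had a Benjamini-Hochberg adjusted p under 0.05, while 1309 (10.8%) had an unadjusted p under 0.05. DESeq2 gave 34 genes (0.28%) at an adjusted p under 0.05.

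Of the 10 genes, 8 were tested, and Eln and Fbln1 missed the filter on low counts (1 CPM in 3 or more libraries). Fbn2 and Lox were higher in every Slit2th library than in any Slit2fl/fl library, by 3.80-fold and 4.49-fold. Their relatives Fbn1 and Loxl1 had folds of 1.33 and 0.677, and in these and in all 5 fibulins the groups overlapped. Summed over the 10 genes, the level was 152 to 291 CPM (Slit2fl/fl) and 399 to 443 CPM (Slit2th). Without Lox and Fbn2 the other 8 summed to 132, 219 and 183 CPM against 179.5, 212 and 244 CPM, which overlap. At an unadjusted p under 0.05, 2 of the 8 tested genes were higher (3.99% of all tested genes were) and 0 were lower (6.78% of all). Likewise 2 of the 8 had every Slit2th library above every Slit2fl/fl library, where 8.72% of all tested genes did. A log2 fold change of 1 or more was found in 2 of the 8 and in 9.25% of all tested genes, and a positive one in 6 of the 8 and in 47.8% of all. The median log2 fold change was 0.33 over the 8 genes and -0.05 over all tested genes. After adjustment over all tested genes 0 of the 8 passed, with edgeR's adjusted p between 0.422 and 0.999.

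**Figure D1:**
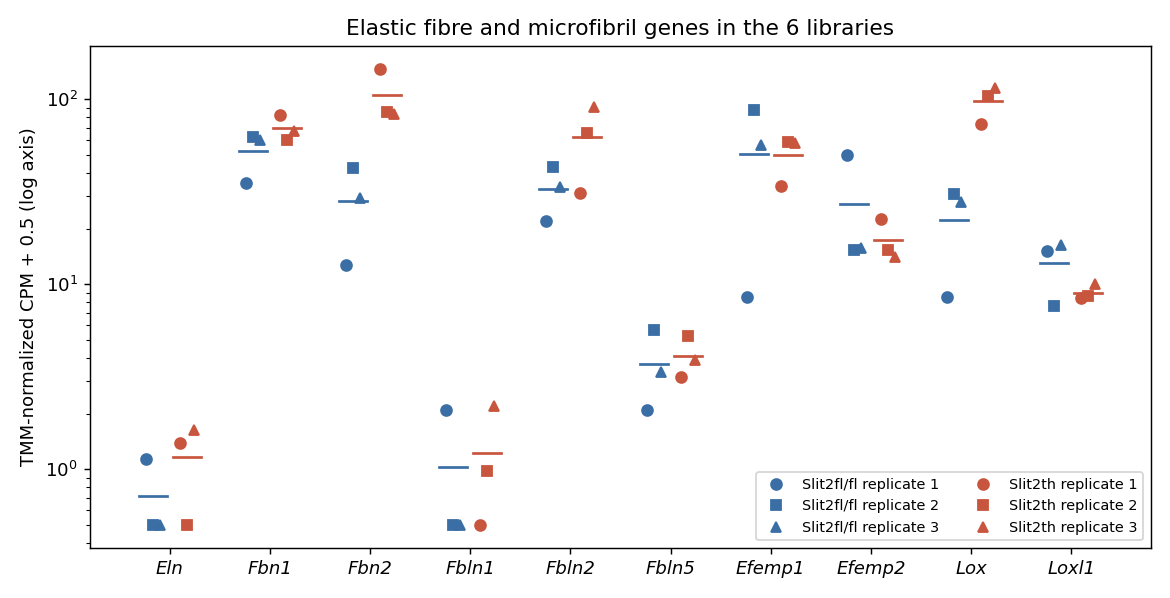
Level of each of the 10 genes in each library, as TMM-normalized CPM plus 0.5 on a log axis. Points are libraries (blue, Slit2fl/fl, and red, Slit2th, with the symbol giving the replicate number) and short lines are group means. The red points lie wholly above the blue points for Fbn2 and Lox only, and Eln and Fbln1 lie near the bottom in both groups.

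The fibrillins form the microfibril itself. Fibrillin-1, the product of Fbn1, is the main fibrillin of postnatal tissue, whereas fibrillin-2, the product of Fbn2, is best known from developing tissue. Fbn2 (ENSMUSG00000024598) lies on the minus strand of chromosome 18 of GRCm38 from 58008623 to 58210487, in 67 merged exons. Replicates 1, 2 and 3 held 38, 65 and 51 Fbn2 counts (Slit2fl/fl) and 166, 179 and 147 (Slit2th). In CPM these were 12.1, 42.0 and 28.9 against 146, 85.2 and 82.8, with means of 27.7 ± 15.0 and 104.7 ± 35.9 (SD, n = 3 each). The gap in CPM between the highest Slit2fl/fl and the lowest Slit2th library was wider than the whole range of the Slit2fl/fl libraries, and the highest value was in Slit2th replicate 1. By edgeR's test the log2 fold change was 1.93 ± 0.50 (standard error), rank 84 by p among all tested genes (unadjusted p = 0.00401, adjusted p = 0.422). A two-sided exact permutation test of log2 CPM gave p = 0.10, which is the smallest value possible with groups of 3.

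Fbn1 (ENSMUSG00000027204, minus strand of chromosome 2, 125300594 to 125507993) had nearly the same number of reads in all libraries, 109, 96 and 105 (Slit2fl/fl) and 93, 125 and 119 (Slit2th). Scaled to CPM, these became 34.8, 62.1 and 59.6 against 81.8, 59.5 and 67.0. Replicate 1 was the lowest library of Slit2fl/fl and the highest of Slit2th, while replicates 2 and 3 of both groups lay within 59.5 to 67.0 CPM. The log2 fold change of 0.41 (standard error 0.37) had an adjusted p of 0.654 by edgeR's test. The gene Gm9913 on the opposite strand overlaps 2442 bases of the Fbn1 exons, and the strand setting of the counting is not given. Gm9913 itself was assigned 1 read over all libraries. The Fbn2 exons share 129 bases with an antisense lincRNA, Gm26507.

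The contrast between the fibrillins can be read without any scaling of the libraries, as the share of Fbn2 among the reads of both genes, whose merged exons have similar lengths (13.215 kb for Fbn2 and 12.128 kb for Fbn1). This quantity was chosen after the values were seen, so it is given without a test. Fbn2 made up 25.9%, 40.4% and 32.7% of fibrillin reads in Slit2fl/fl replicates 1, 2 and 3. In Slit2th it made up 64.1%, 58.9% and 55.3%. The highest Slit2fl/fl share had an exact 95% binomial interval of 32.7% to 48.4%, and the lowest Slit2th share one of 49.1% to 61.3%, intervals that cover counting error only. Fbn1 thus had more reads than Fbn2 in each Slit2fl/fl library and fewer in each Slit2th library. No stretch of 50 bases is shared between the annotated transcripts of any of the 45 pairs of the 10 genes, so an exact match of that length cannot fall on more than 1 of them.

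Lysyl oxidases oxidize lysines of tropoelastin and collagen to start cross-linking. Lox (ENSMUSG00000024529) lies on the minus strand of chromosome 18 from 52516067 to 52529867, in 8 merged exons, of which 30 bases are shared with the antisense gene AC161119.1. It had 25, 47 and 48 counts in the control libraries and 83, 217 and 205 in those of Slit2th. In CPM these were 7.99, 30.4 and 27.2 against 73.0, 103 and 115, with means of 21.9 ± 12.1 and 97.3 ± 21.9 (SD, n = 3 each). No Slit2fl/fl library came near the lowest Slit2th library, and the lowest library of each group was replicate 1. By edgeR's test the log2 fold change was 2.17 ± 0.52 (standard error), rank 50 by p (unadjusted p = 0.00237, adjusted p = 0.422), and the exact permutation test gave p = 0.10. By DESeq2 the adjusted p of Lox was 0.0350, and that of Fbn2 was 0.0794.

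Loxl1 (ENSMUSG00000032334, minus strand of chromosome 9, 58287738 to 58313186), the lysyl oxidase most closely tied to elastic fibre upkeep, had a lower mean in Slit2th. It was counted 46, 11 and 28 times in the Slit2fl/fl libraries and 9, 17 and 17 times in the Slit2th libraries, or 14.7, 7.12 and 15.9 against 7.92, 8.10 and 9.58 CPM. Slit2fl/fl replicate 2 lay below all Slit2th libraries, so the groups overlapped, and the log2 fold change was -0.56 (standard error 0.48, adjusted p = 0.641 by edgeR's test). Of the reads of Lox and Loxl1 together, Lox took 35.2%, 81.0% and 63.2% in the controls against 90.2%, 92.7% and 92.3% after deletion, a quantity also chosen after the values were seen. The Slit2th shares were nearly equal, and all lay above the Slit2fl/fl shares. The interval of Slit2fl/fl replicate 2 (68.6% to 90.1%) overlapped that of Slit2th replicate 1 (82.2% to 95.4%), so the gap between these 2 libraries was within counting error.

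**Figure D2:**
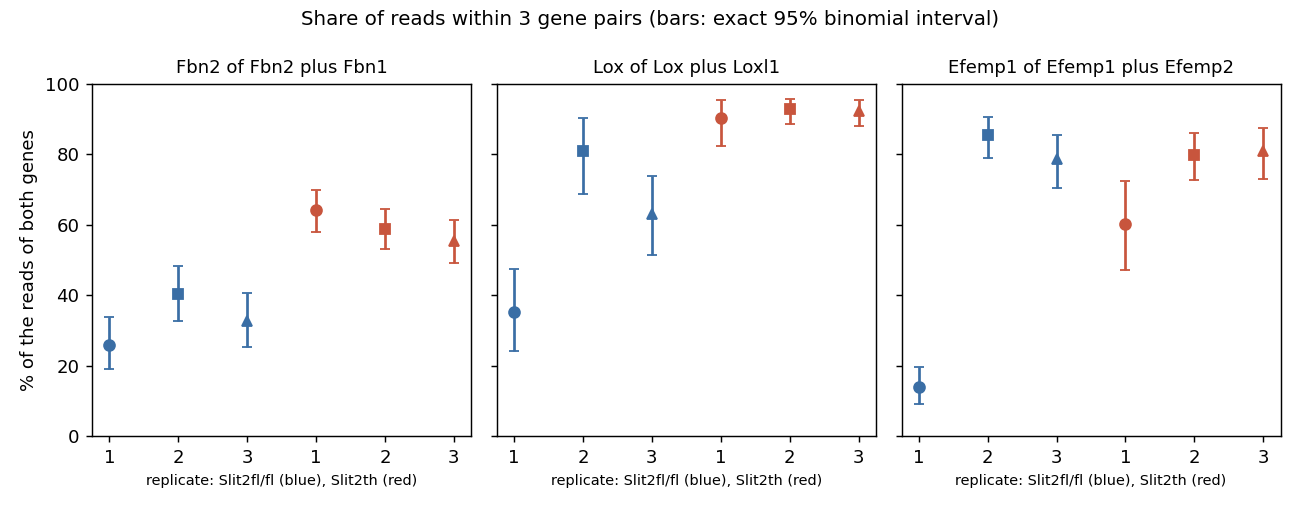
Percent of the reads of each gene pair that fell on the gene named first, by library (blue, Slit2fl/fl, and red, Slit2th, replicates 1 to 3 from left to right). Bars are exact 95% binomial intervals and cover counting error only. The shares of Fbn2 and Lox are higher in all Slit2th libraries, and the share of Efemp1 is lowest in replicate 1 of each group.

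The fibulins are secreted glycoproteins of repeated calcium-binding EGF-like domains. The short fibulins Fbln5, Efemp1 and Efemp2 are of like architecture. For orientation, 250 bases upstream of a RefSeq transcription start of each are shown (GRCm38.p6, 5′ to 3′ on the gene's strand, at chr12:101819120-101819369 on the minus strand, chr11:28852955-28853204 on the plus strand and chr19:5473696-5473945 on the plus strand). Capitals mark matches on either strand to the GC box GGGCGG or the AP-1 motif TGANTCA.
Fbln5: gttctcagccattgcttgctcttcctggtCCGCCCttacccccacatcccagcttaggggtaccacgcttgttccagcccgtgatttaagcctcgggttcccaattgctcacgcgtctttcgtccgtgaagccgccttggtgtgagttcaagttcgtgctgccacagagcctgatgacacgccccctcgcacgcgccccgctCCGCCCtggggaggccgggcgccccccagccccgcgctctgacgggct
Efemp1: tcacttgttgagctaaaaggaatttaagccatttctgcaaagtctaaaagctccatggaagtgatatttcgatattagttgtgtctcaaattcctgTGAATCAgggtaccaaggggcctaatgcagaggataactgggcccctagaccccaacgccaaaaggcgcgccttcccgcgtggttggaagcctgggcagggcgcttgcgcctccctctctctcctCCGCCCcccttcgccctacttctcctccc
Efemp2: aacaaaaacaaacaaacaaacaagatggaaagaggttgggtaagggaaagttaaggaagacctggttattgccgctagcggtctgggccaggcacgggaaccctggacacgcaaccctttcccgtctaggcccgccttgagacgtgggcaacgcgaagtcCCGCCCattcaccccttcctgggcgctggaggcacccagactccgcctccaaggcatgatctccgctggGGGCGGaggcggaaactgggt
Each window holds a GC box, which 32.7% of all 32851 RefSeq windows of this length hold. The Efemp1 window also holds a match to TGANTCA, found in 6.75% of all windows. RefSeq windows were at hand for 6 of the 10 genes (Fbn1, Fbln1, Fbln2, Fbln5, Efemp1 and Efemp2), 10 windows in all, of which 8 held GGGCGG, 1 held TGANTCA and 0 held the TATA motif TATAAA (12.4% of all windows) or the TEAD motif CATTCC (12.6% of all). Windows of the same gene overlap for Fbln1 and Efemp2, so the 10 windows count some letters more than once. Another Fbln5 window held no GC box. The windows of Fbn1 and Fbln2 lie wholly within annotated exons. These matches describe letters only, and no window was given for Lox or Fbn2.

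Efemp1 (ENSMUSG00000020467, plus strand of chromosome 11, 28853204 to 28926743), whose protein fibulin-3 is found in basement membranes and fascia, had 25, 134 and 99 counts (Slit2fl/fl) and 38, 123 and 102 (Slit2th). In CPM these were 7.99, 86.7 and 56.2 against 33.4, 58.6 and 57.5. Replicate 1 was the lowest library of each group, Slit2fl/fl replicate 2 was the highest, and the other 3 lay within 56.2 to 58.6 CPM. EdgeR's log2 fold change was 0.0023 ± 0.69 (standard error, adjusted p = 0.999). Without Slit2fl/fl replicate 1 it became -0.52, and without Slit2fl/fl replicate 2 it became 0.67, so the estimate rests on these libraries.

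Efemp2 (ENSMUSG00000024909, plus strand of chromosome 19, 5473954 to 5482517), whose protein fibulin-4 is needed for elastic fibre formation in arteries and lung, was read 155, 23 and 27 times in Slit2fl/fl libraries and 25, 31 and 24 times in Slit2th libraries. The CPM were 49.5, 14.9 and 15.3 against 22.0, 14.8 and 13.5. Here replicate 1 was the highest library of each group, the reverse of Efemp1. The log2 fold change was -0.69 (standard error 0.56, adjusted p = 0.627 by edgeR's test), and it turned to 0.14 without Slit2fl/fl replicate 1. Efemp1 took 13.9% of the reads of the pair in Slit2fl/fl replicate 1 and 60.3% in Slit2th replicate 1, against 78.6% to 85.4% in the other 4 libraries. The exons of Efemp2 share 173 bases with Mus81 on the opposite strand.

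Fbln2 (ENSMUSG00000064080, plus strand of chromosome 6, 91212455 to 91272540), a fibulin of basement membranes and of vessel walls, had the smallest p of the 8 tested genes after Lox and Fbn2. Counts of 67, 66 and 58 in the control libraries faced 35, 138 and 161 in the deleted ones, or 21.4, 42.7 and 32.9 against 30.8, 65.7 and 90.7 CPM. Slit2th replicates 2 and 3 exceeded every Slit2fl/fl library, and Slit2th replicate 1 did not. The log2 fold change of 0.96 (standard error 0.48) missed the threshold in edgeR's test (unadjusted p = 0.0745, adjusted p = 0.487). Without Slit2th replicate 1 it was 1.29 (edgeR, unadjusted p = 0.0117, adjusted p = 0.368), and without Slit2th replicate 3 it was 0.60 (unadjusted p = 0.296, adjusted p = 0.796).

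Fbln5 (ENSMUSG00000021186, minus strand of chromosome 12, 101746565 to 101819055), whose protein tethers elastin to cells and to Loxl1, was barely detected, with 5, 8 and 5 counts (Slit2fl/fl) and 3, 10 and 6 (Slit2th). Its log2 fold change of 0.24 (standard error 0.69) had an adjusted p of 0.897 by edgeR's test, and the sign changed to -0.11 without Slit2fl/fl replicate 1. Fbln1 (ENSMUSG00000006369, plus strand of chromosome 15, 85205949 to 85286535), a fibulin of many connective tissues, had 5, 0 and 0 counts (Slit2fl/fl) and 0, 1 and 3 (Slit2th). Pooled within a group and scaled by total counts alone, this is 0.774 CPM for Slit2fl/fl (exact Poisson 95% interval 0.251 to 1.81) and 0.811 CPM for Slit2th (0.221 to 2.08), so a difference was not detectable at this depth. Counts are summed over transcript forms, so the splice forms of Fbln1 cannot be told apart.

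Eln (ENSMUSG00000029675, minus strand of chromosome 5, 134702593 to 134747323), which encodes tropoelastin, gave 2, 0 and 0 reads (Slit2fl/fl) and 1, 0 and 2 reads (Slit2th). The levels pooled in the same way were 0.310 CPM (exact Poisson 95% interval 0.0375 to 1.12) and 0.608 CPM (0.125 to 1.78). No library exceeded the floor of 3 counts, so a difference between genotypes was not detectable at this depth, and no fold change is given. The exons of Eln share 267 bases with the antisense gene Gm30003.

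Levels of different genes can be compared per kilobase of merged exons. On this scale Efemp1 had the highest level in 5 of 6 libraries and the highest mean of the 10 genes in both groups, 24.7 ± 19.5 CPM per kb for Slit2fl/fl and 24.5 ± 6.97 for Slit2th (SD, n = 3 each). In Slit2fl/fl the means of Efemp2 (7.02 ± 5.25), Fbln2 (5.08 ± 1.67), Lox (4.58 ± 2.54), Fbn1 (4.30 ± 1.24), Loxl1 (3.81 ± 1.44) and Fbn2 (2.10 ± 1.13) followed within the spread of their neighbours. Slit2fl/fl replicate 1 had another order, with Efemp2 first (13.1), then Loxl1 (4.46) and then Efemp1 (3.92), and Efemp2 was at 3.93 and 4.04 in replicates 2 and 3. In Slit2th the order was Efemp1, Lox (20.4 ± 4.57), Fbln2 (9.80 ± 4.72), Fbn2 (7.92 ± 2.71), Fbn1 (5.73 ± 0.937), Efemp2 (4.42 ± 1.21) and Loxl1 (2.59 ± 0.276). Efemp1 and Lox did not differ beyond their spread there, nor did Fbln2 and Fbn2, whereas Lox was the second gene in each Slit2th library. Fbln5 (0.464 ± 0.263 and 0.520 ± 0.156), Fbln1 and Eln had the lowest means in both groups.

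**Figure D3:**
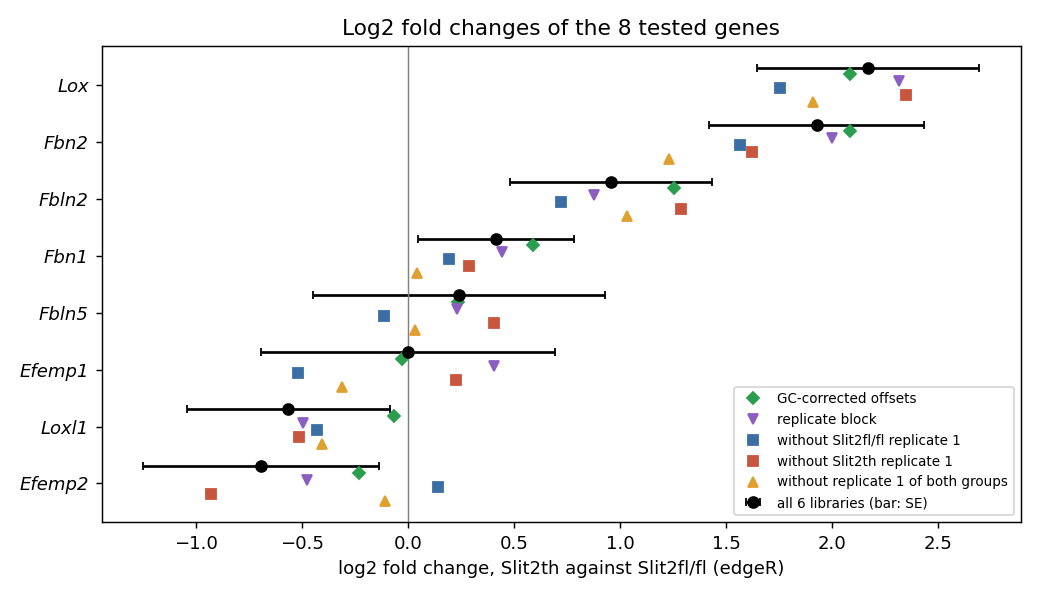
Log2 fold change of the 8 tested genes, Slit2th against Slit2fl/fl, from edgeR fits with all 6 libraries (black, bars give the standard error), with GC-corrected offsets, with the replicate number as a block, and without replicate 1 of one or of both groups. Lox and Fbn2 lie above 1 in each fit shown, and the points of Efemp1, Fbln5 and Efemp2 lie on both sides of 0.

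Since the replicate 1 libraries stood apart, the fits were repeated without them. Without replicate 1 of both groups, the log2 fold change was 1.91 for Lox (adjusted p = 7.58e-04 by edgeR's test) and 1.23 for Fbn2 (adjusted p = 0.0239), in a fit in which 377 of 11473 genes (3.29%) passed. Fbln2 had 1.03 and an adjusted p of 0.0563, and Fbn1 had 0.04. With only Slit2fl/fl replicate 1 left out, Lox had 1.75 and Fbn2 1.56 (edgeR, adjusted p = 0.463 and 0.605), and with only Slit2th replicate 1 left out they had 2.35 and 1.62 (adjusted p = 0.368 for each). Without replicate 2 of both groups the adjusted p was 0.618 for each, and without replicate 3 of both it was 0.821 for each. In 19 alternative fits, Lox ranged from 1.75 to 2.49 and Fbn2 from 1.23 to 2.48, each with an unadjusted p under 0.05 in all 19. Fold changes across all genes were related to GC content (rank correlation -0.344, and -0.0344 with corrected offsets). With GC-corrected offsets Lox had a log2 fold change of 2.09 and Fbn2 of 2.08, and Loxl1 moved from -0.56 to -0.07.

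The cultures also differed in markers of other cell types, which bears on every gene here because fewer cells of a type and less RNA per cell cannot be told apart in bulk RNA. The 19 fibroblast markers in the table summed to 2542 to 3575 CPM (Slit2fl/fl) and 3495 to 5056 CPM (Slit2th). Of the 15 tested, 13 were positive and 4 were higher at an unadjusted p under 0.05 (median log2 fold change 0.62), and 0 of the 19 had no reads. Col1a2, the highest of them in CPM, had a log2 fold change of 0.42. The 4 past that threshold were Lum (2.19), Scara5 (1.96), Col3a1 (1.14) and Pdgfra (1.07), named after their values were seen, so Lum and Scara5 differed between the genotypes by about as much as Lox and Fbn2. Lum, a small collagen-binding proteoglycan, stood at 16.3, 72.5 and 56.2 CPM against 202, 185 and 269 CPM, without overlap. Per 1000 CPM of these fibroblast markers, Lox stood at 3.14, 8.51 and 9.15 in the control libraries and at 20.9, 22.7 and 22.8 in the Slit2th libraries. Fbn2 stood at 4.78, 11.8 and 9.73 against 41.8, 18.7 and 16.4. On this scale Lox was 3.54-fold and Fbn2 2.86-fold higher in Slit2th, and both again had every Slit2th library above every Slit2fl/fl library (exact permutation test, p = 0.10 for each). The other 6 tested genes overlapped. With Col1a2 left out of the sum, the folds were 3.24 and 2.62. The sum is weighted to the collagens and Dcn, and against single markers the picture varied, a comparison added after the values were seen. Over 14 tested markers with reads in every library, the ratio of Lox to the marker was higher in Slit2th without overlap for 9, and that of Fbn2 for 8. Relative to Lum, Lox was 0.953-fold and Fbn2 0.771-fold, and relative to Scara5 they were 1.13-fold and 0.916-fold, with overlapping groups in all 4 cases.

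The glia markers, with 8 of 17 tested members positive (median log2 fold change -0.12), summed higher in every Slit2th library. Per 1000 CPM of these markers, a scale chosen after the sums were seen, Lox was 2.94-fold and Fbn2 2.37-fold higher, without overlap. On the glia scale Fbn1, Efemp2 and Loxl1 were lower in every Slit2th library, with folds of 0.786, 0.421 and 0.414, so the direction of Fbn1 depended on the scale. The 15 macrophage markers summed to 34.0 to 89.5 CPM (Slit2fl/fl) and 117 to 644 CPM (Slit2th), with 11 of 12 tested positive, a median of 2.01 and Lyz2 at 2.15. The 13 smooth muscle and pericyte markers summed to 100.4 to 228 and 88.6 to 252 CPM (4 of 8 tested positive, median 0.05, Pdgfrb at 0.56) and the 12 endothelial markers to 42.0 to 133 and 49.5 to 58.1 CPM (2 of 5 positive, median -0.29, Egfl7 at -0.40). For the sympathetic neuron markers 1 of 6 tested was positive (median -0.43, Tubb3 at -0.70). The part of these cell types in the levels of Lox and Fbn2 was not tested beyond the ratios given.

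Other genes of elastic fibre assembly, from a list of 42 that leaves out the 10 above, were read from the same fit. Of these, 40 were in the table and 29 were tested, 12 with a positive and 17 with a negative log2 fold change (median -0.44). At an unadjusted p under 0.05, 1 was higher (Ctss) and 1 was lower (Itgb5), and 0 passed after adjustment over all genes by edgeR's test. These 2 of 29 (6.90%) compare with 10.8% of all tested genes. The groups did not overlap for 3 of the 29 that were higher (Loxl2, Itgb8 and Ctss) and 3 that were lower (Adamtsl4, Itga5 and Itgb1) in Slit2th. Over all tested genes, 8.72% were higher and 9.73% were lower without overlap.

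Partners of the microfibril had no gene past even the unadjusted threshold. Where 47.8% of all tested genes had positive values, the 4 tested microfibril-associated proteins all had negative ones, from -1.17 to -0.64. Among them were Mfap5, which binds fibrillin (45.9 ± 20.8 CPM against 29.2 ± 17.4 CPM in Slit2th, log2 fold change -0.64), and Emilin1, a glycoprotein at the elastin-microfibril interface (22.6 ± 20.7 and 10.6 ± 1.96, -1.12). Slit2fl/fl replicate 1 was the highest library for both, at 69.7 and 46.3 CPM. The groups overlapped in all 4 genes. Mfap2 had the lowest value, from 5, 3 and 1 counts against 0, 2 and 1 in Slit2th (standard error 1.02). Of the latent TGF-beta binding proteins, 2 were positive and 2 negative. Ltbp1, which tethers latent TGF-beta to fibrillin, stood at 158 ± 41.2 and 104 ± 32.9 CPM (-0.61), and Ltbp3 at 22.1 ± 25.2 and 34.9 ± 48.3 (0.60), its replicate 1 libraries at 51.1 and 90.6 CPM and the other 4 between 6.67 and 7.76 CPM. The fibrillin-binding Adamts17 and Adamtsl5 had 1.17 and 0.84, with Slit2th replicate 1 the highest library for each (103 and 56.3 CPM). The fibulin gene Fbln7 had 1, 1 and 0 counts against 1, 6 and 6 in Slit2th, too few to test, and the hemicentin gene Hmcn1 had 0.

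Among the remaining lysyl oxidases, Loxl2, which acts on collagen IV, was at 15.0, 30.4 and 24.4 CPM in control libraries and at 35.2, 42.9 and 47.3 CPM in Slit2th libraries. The log2 fold change of Loxl2 was 0.85, with a standard error of 0.40 (edgeR, unadjusted p = 0.0610, adjusted p = 0.473). Loxl3 had 34 counts in Slit2fl/fl replicate 1 and 1 to 3 in all other libraries (log2 fold change -1.63, standard error 1.06). Bmp1, whose protease frees active Lox from its precursor, had 0.41 (standard error 0.47), and Atp7a, the copper pump that loads lysyl oxidases, had 0.09 (standard error 0.39). The 6 genes of processing and copper supply ranged from -0.72 to 0.41, with 0 past the unadjusted threshold.

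Integrins bind the RGD sequences of fibrillins and fibulin-5. Itgb8, a subunit that activates latent TGF-beta, stood at 313, 979 and 790.3 CPM against 1073, 1253 and 1312 CPM in Slit2th (log2 fold change 0.81, standard error 0.44). Itgb1, the common beta subunit, stood at 512, 393 and 501 CPM against 304.5, 305 and 309 CPM (-0.61, standard error 0.30), again without overlap. Neither was under the unadjusted threshold (edgeR, unadjusted p = 0.0985 and 0.0742, adjusted p = 0.509 and 0.487). Itgb5 was, with 33.2, 7.76 and 17.02 CPM against 8.80, 6.19 and 6.20 CPM (log2 fold change -1.48, standard error 0.58, unadjusted p = 0.0315, adjusted p = 0.441 by edgeR's test). The groups overlapped in Itgb5, and without Slit2fl/fl replicate 1 its log2 fold change was -0.82 (unadjusted p = 0.144 in edgeR's test).

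Of the proteases that cleave elastin, Ctss (cathepsin S, abundant in macrophages) had 13, 9 and 8 counts in control libraries and 52, 22 and 29 in Slit2th libraries. This is 4.15, 5.82 and 4.54 CPM against 45.8, 10.5 and 16.3 CPM, a log2 fold change of 2.30 (standard error 0.63, unadjusted p = 0.00505, adjusted p = 0.422 by edgeR's test). The groups did not overlap, and without Slit2th replicate 1 the value was 1.47. Slit2th replicate 1 was also the library with the largest sum of macrophage markers, 644 CPM. Most of that sum came from Lyz2 (284 CPM), Aif1 (181 CPM) and C1qa (73.9 CPM). Not every marker was highest there, as Adgre1 stood at 6.16, 6.19 and 7.32 CPM in Slit2th replicates 1, 2 and 3. Aif1, C1qa and Adgre1 are named after their values were seen. Mmp2, a broad matrix protease, stood at 270.1 ± 169.8 CPM against 240.0 ± 189 CPM (log2 fold change -0.17), with its highest value in replicate 1 of each group.

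**Figure D4:**
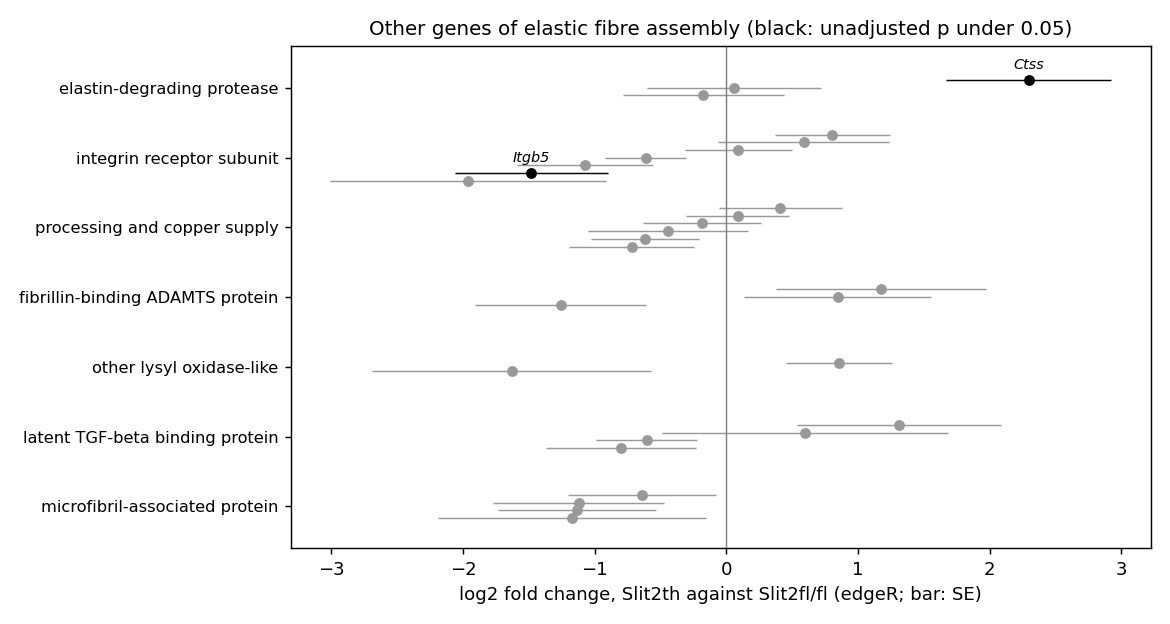
Log2 fold change, Slit2th against Slit2fl/fl, of the 29 tested genes from the wider list of elastic fibre assembly, grouped by role. Points are genes, bars give the standard error, and black marks an unadjusted p under 0.05 (Ctss, higher, and Itgb5, lower). The 4 microfibril-associated proteins all lie left of 0, with overlapping groups in each, while 47.8% of all tested genes had positive values.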

How the data were processed

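The authors prepared TruSeq libraries, sequenced them on an Illumina HiSeq, aligned reads with HISAT2 to mm10 and deposited whole-number read counts per gene, without normalization. The submitters' processing notes list GRCm39 instead. The counting program, strand setting and annotation release are not given in the sources used here. Groups came from the genotype labels.

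Gene identifiers were joined to GENCODE M21 (GRCm38), where 20166 of 20173 were found. The test took genes that reached 1 CPM in 3 or more libraries. It was run in R 4.3.3 with edgeR 4.0.16 (TMM, quasi-likelihood test, no covariate, Benjamini-Hochberg adjustment over all tested genes, threshold 0.05). Standard errors are the log2 fold change over the root of the test statistic. Exact permutation tests used log2(CPM + 0.5). Alternatives used limma 3.58.1 and DESeq2 1.42.0, and the tests were checked on simulated counts. The genes and lists were chosen with earlier results of these data known. All 10 genes are named. Of the wider list, those at an unadjusted p under 0.05 and the 2 highest in mean CPM per role are named. Mfap2, Fbln7, Hmcn1, Adamtsl4 and Itga5 were added after their values were seen. So were the read shares of gene pairs and the ratios to glia markers and to single fibroblast markers. Of each marker list the tested gene with the highest mean CPM and any defining gene at 0 are named, except for items that are not reported here.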

Additional observations from a re-analysis of the deposited data

How the results depend on the processing

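Depth limits Eln, Fbln1 and Fbln5 most, and 3 libraries a group limit every test. The number of genes past the adjusted threshold was 0 with all 6 libraries in edgeR's quasi-likelihood test (1309 at an unadjusted p under 0.05), 34 with DESeq2, 17 with edgeR's exact test, 7 without a filter, and 0 to 377 with libraries left out, the 377 being without replicate 1 of both groups and 1 being without Slit2fl/fl replicate 1. The count of the 8 genes at an unadjusted p under 0.05 was 2 or 3 in all 19 alternatives, and their median log2 fold change 0.04 to 0.71. Of the wider list, 2 genes passed unadjusted, 4 without a filter, 5 with the replicate block, 4 with GC-corrected offsets and the replicate block, and 1 to 7 with libraries left out (6 without Slit2fl/fl replicate 2, 7 without replicate 1, 4 without replicate 2 and 1 without replicate 3 of both groups). Efemp1 changed sign with upper quartile scaling (-0.019), with edgeR's exact test (-0.0034), with GC-corrected offsets (-0.029) and with libraries left out (-0.52 to 0.67). With libraries left out, Fbln5 ranged from -0.11 to 0.76 and Efemp2 from -1.03 to 0.14. Lox, Fbn2, Fbln2, Fbn1 and Loxl1 kept their sign in all 19. However, Loxl1 was at -0.0058 with GC-corrected offsets and the replicate block. Fbn1 was at 0.042 without replicate 1 of both groups, so neither of these signs is firm. Same-numbered libraries of the 2 groups had correlations of their deviations of 0.292, 0.245 and 0.0808. Differently numbered ones had -0.312 to 0.255. These values do not settle whether the numbers mark pairs. The study names no covariate, so the main fit took none. With the replicate block, Lox had 2.32 (adjusted p = 0.127), Fbn2 2.0 (adjusted p = 0.224) and Fbln2 0.88 (unadjusted p = 0.0323, adjusted p = 0.338), by edgeR. The causes of these shifts were not tested.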

Other observations

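Lox and Fbn2 lie on the same chromosome, with 5.48 Mb of chromosome 18 of GRCm38 between them. The 17 tested genes in that interval had a median log2 fold change of 0.19, from -1.23 to 1.64. Of these, 12 were positive, 0 were higher and 1 (Phax, -1.23) was lower at an unadjusted p under 0.05 by edgeR's test. Over the 339 tested genes of chromosome 18 the median was 0.14, with 22 higher and 18 lower at the same threshold. The interval and the gene Phax were chosen after the values of Lox and Fbn2 were seen.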
